A study of Apis mellifera with 36 samples.

Results

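The series measured 15314 gene IDs in the brains of 36 worker honey bees (Apis mellifera). In 23 of them the highest value stood far above the gene's median and only 1 or 2 bees passed a set cutoff. In most of the 23, further bees were raised to a lesser degree. These genes were chosen on their counts per 1000000 counts over genes (CPM): a highest value of at least 10 CPM and at least 10 times the gene's median over the 36 bees, with only 1 or 2 bees above 5 times a base. The base is the larger of that median and 0.5 CPM, and a bee above 5 times the base is called a spiking bee here. The choice used the CPM of all 36 bees, so the size and place of the spikes are given as a description, with no test.

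Each library came from 1 bee aged 7 days, cut from the upper midbrain: chiefly mushroom bodies, the paired brain centres for learning and memory, with the central brain. There were 12 unresponsive bees, 12 guards and 12 nurses. Unresponsive bees showed no overt response, guards attacked an intruder bee in both of its assays, and nurses tended a queen larva in both of its assays. Each type had 6 bees from colony 6 (R23) and 6 from colony 5 (R22), each headed by a queen inseminated by 1 drone, and all bees were kept in laboratory dishes from emergence. Each colony is therefore 1 family, so that colony stands for family, any shared rearing or handling and much of the virus load given below at once.

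In the head of a bee the brain lies against exocrine glands, fat body, air sacs and the compound eyes. The hypopharyngeal glands, which make brood food in young workers, are large and lie close to the brain. Per the labels' protocols these glands, the optic lobes, the antennal lobes and the suboesophageal ganglion were cut away. Cells of another tissue left on a brain add all transcripts of that tissue to 1 library at once, and this is why it matters whether genes spike in the same bees. Names for the gene IDs are not paired with them in the files, and a RefSeq gene table matched 0 of the 15314. The genes are therefore given by ID, with no name or function, and no cell type marker could be looked up. Whether other tissue had a part in any spike was not tested. In bulk tissue, more cells of a type and more RNA per cell cannot be told apart.

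Total counts over genes ran from 16167731 to 27548410 per library. They were 16808357 to 20837384 in the 13 bees with a spike and 16167731 to 27548410 in the 23 without. The bee at the top of each gene had 188 to 6687 reads of it, against a median over bees of 2 to 704.5 reads, so that counting error was small beside the spikes. Deformed wing virus (DWV) stood above 1000 reads per 1000000 total reads (RPM) in 16 bees. Of those, 7 had a spike, as did 6 of the 20 bees with less virus. Virus load also differed by colony and type. The only colony 6 bees above 1000 RPM were Guard 213, Guard 230 and Guard 237. Unresponsive bees ran from 10469 to 28967 RPM in colony 5 and from 4.27 to 17.3 RPM in colony 6. Colony, type and virus load therefore cannot be fully told apart.

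The spikes fell in few bees. Of the 23 genes, 11 spiked in 1 bee and 12 in 2 bees, which makes 35 spikes. They lay in 13 bees, and the other 23 bees had none. Nurse 210 of colony 6 had 9 of the 23 genes, Unresponsive 19 and Nurse 32 of colony 5 had 5 each, Guard 205 of colony 6 had 4 and Unresponsive 32 of colony 5 had 3. Of the 23 genes, 22 spiked in at least 1 of these 5 bees. Unresponsive 222 had 2 genes, and the remaining 7 bees had 1 each.

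**Figure D1:**
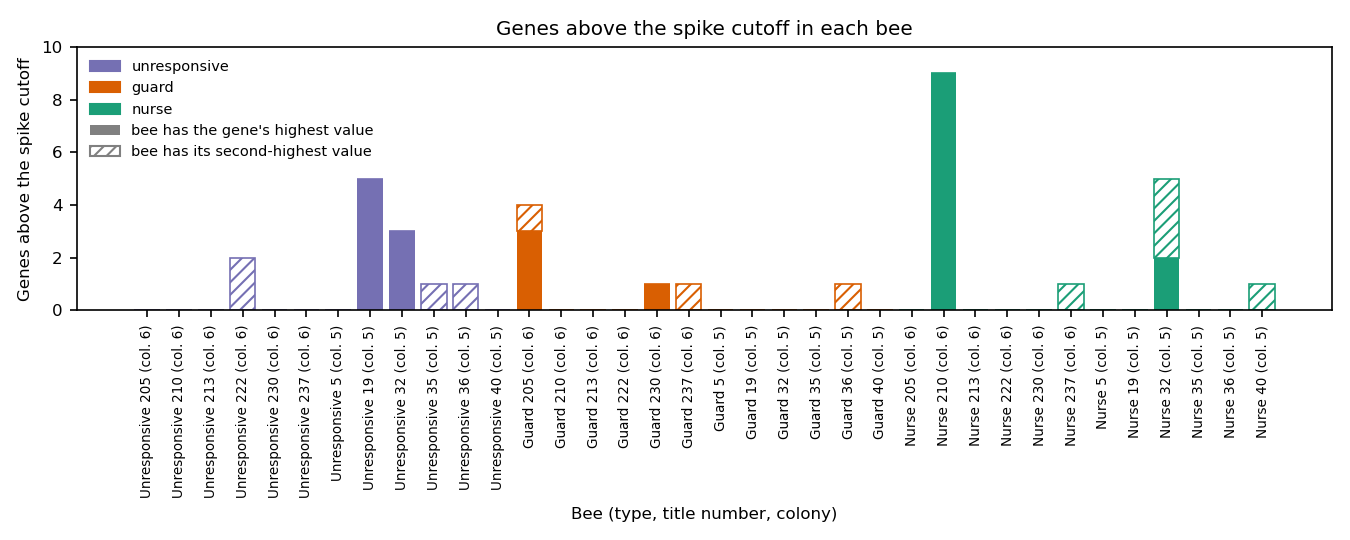
Number of the 23 genes above 5 times their base in each of the 36 bees, ordered by type (unresponsive, guard, nurse) and, within type, colony 6 before colony 5. Solid bars count genes for which the bee had the highest value and hatched bars those for which it had the second-highest; Nurse 210 stands at 9 and 23 bees stand at 0.

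No type or colony held the spikes alone. Of the 23 genes, 10 spiked in an unresponsive bee, 6 in a guard and 13 in a nurse, counting a gene under each type it spiked in. Spiking bees numbered 5 of 12 unresponsive bees, 4 of 12 guards and 4 of 12 nurses. By colony, 15 genes spiked in 6 of 18 colony 6 bees and 14 in 7 of 18 colony 5 bees. The counts rest on single bees: of the 13 genes that spiked in a nurse, 9 did so in Nurse 210.

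The spike was often only the top of a graded series. Highest values ran from 10.3 to 384 CPM, with a median over genes of 29.9 CPM, and the genes' own medians ran from 0.103 to 38.2 CPM. In 16 of the 23 genes every bee had at least 1 read, and 7 genes had 0 reads in 1 to 8 bees. With the cutoff for a spiking bee set at 3 times the base in place of 5, only 7 genes kept 1 or 2 bees above it: GB41643, GB42467, GB43823, GB44248, GB46365, GB50610 and GB55613. The other 16 had 3 to 8 bees above 3 times their base.

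**Figure D2:**
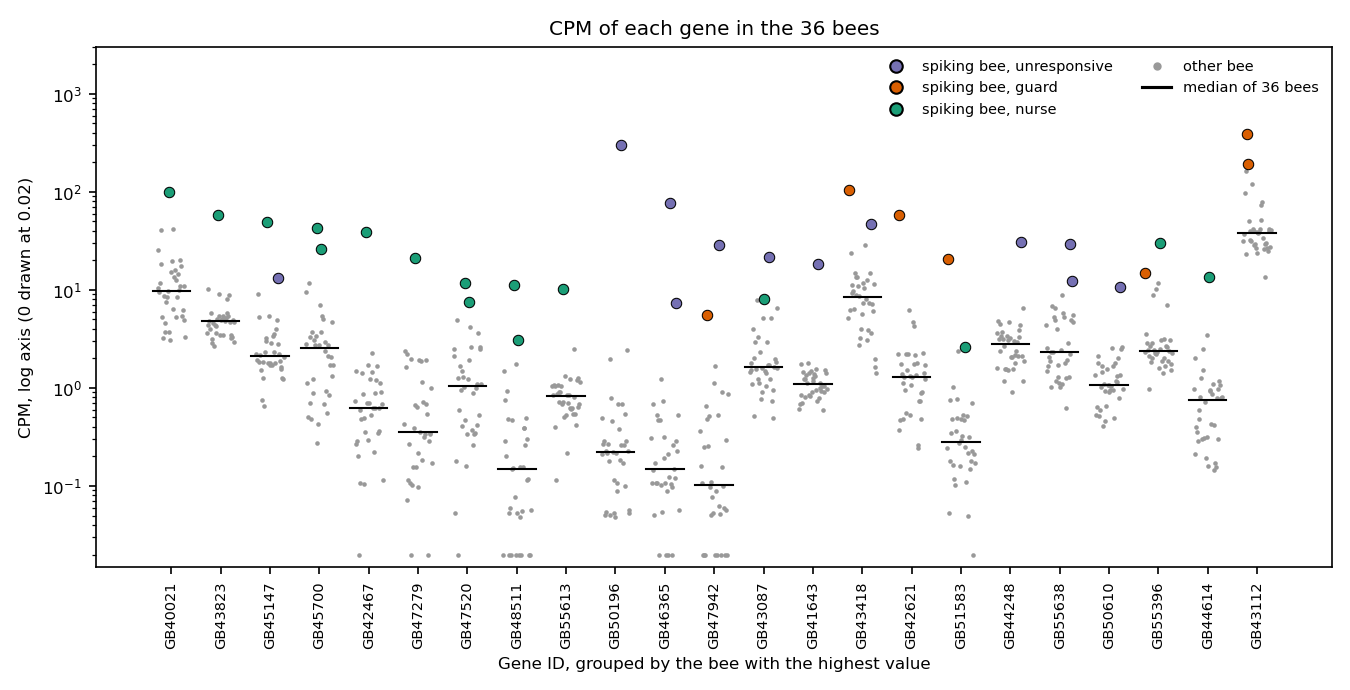
CPM of each of the 23 genes in the 36 bees on a log axis. Each point is 1 bee, coloured large points with a black edge are spiking bees, small grey points are other bees, and the line is the median of 36 bees; GB50196 has the widest gap, with 1 bee at 300.4 CPM and the next at 2.45 CPM.

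Nurse 210 had the highest value of all 9 genes that spiked in it. Its most abundant was GB40021, at 100.6 CPM, against 3.08 to 41.6 CPM in the other 35 bees and a median of 9.84 CPM over all 36. GB43823 stood at 57.8 CPM in Nurse 210 and 2.68 to 10.1 CPM in the other 35. Both genes were read in every bee, so that these spikes lay on top of a standing level. GB42467 had the widest gap to its next bee among the 9: it stood at 39.2 CPM in Nurse 210, 17.4 times the next bee, while the other 35 bees had 0 to 2.25 CPM. The remaining 6 were GB45147 at 49.7 CPM, GB45700 at 43.0 CPM, GB47279 at 21.1 CPM, GB47520 at 11.8 CPM, GB48511 at 11.1 CPM and GB55613 at 10.3 CPM.

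The 9 genes did not share 1 order of bees below Nurse 210. In GB40021, GB45700, GB47520 and GB48511 the second-highest bee was Nurse 32, at 41.6, 26.4, 7.60 and 3.10 CPM, and it passed the cutoff in the last 3. In GB45147 and GB55613 the second-highest bee was Unresponsive 222, at 13.1 and 2.51 CPM, and in GB43823 it was Guard 210, at 10.1 CPM. In GB42467 it was Nurse 36, at 2.25 CPM, and in GB47279 it was Guard 205, at 2.39 CPM. Nurse 32 lay in another colony than Nurse 210 and stood at a median of 3.85 times the base over the 9 genes, with a range of 1.04 to 10.4 times. Guard 222, with no spike, stood at a median of 2.49 times and was among the 3 highest bees in 4 of the 9.

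**Figure D3:**
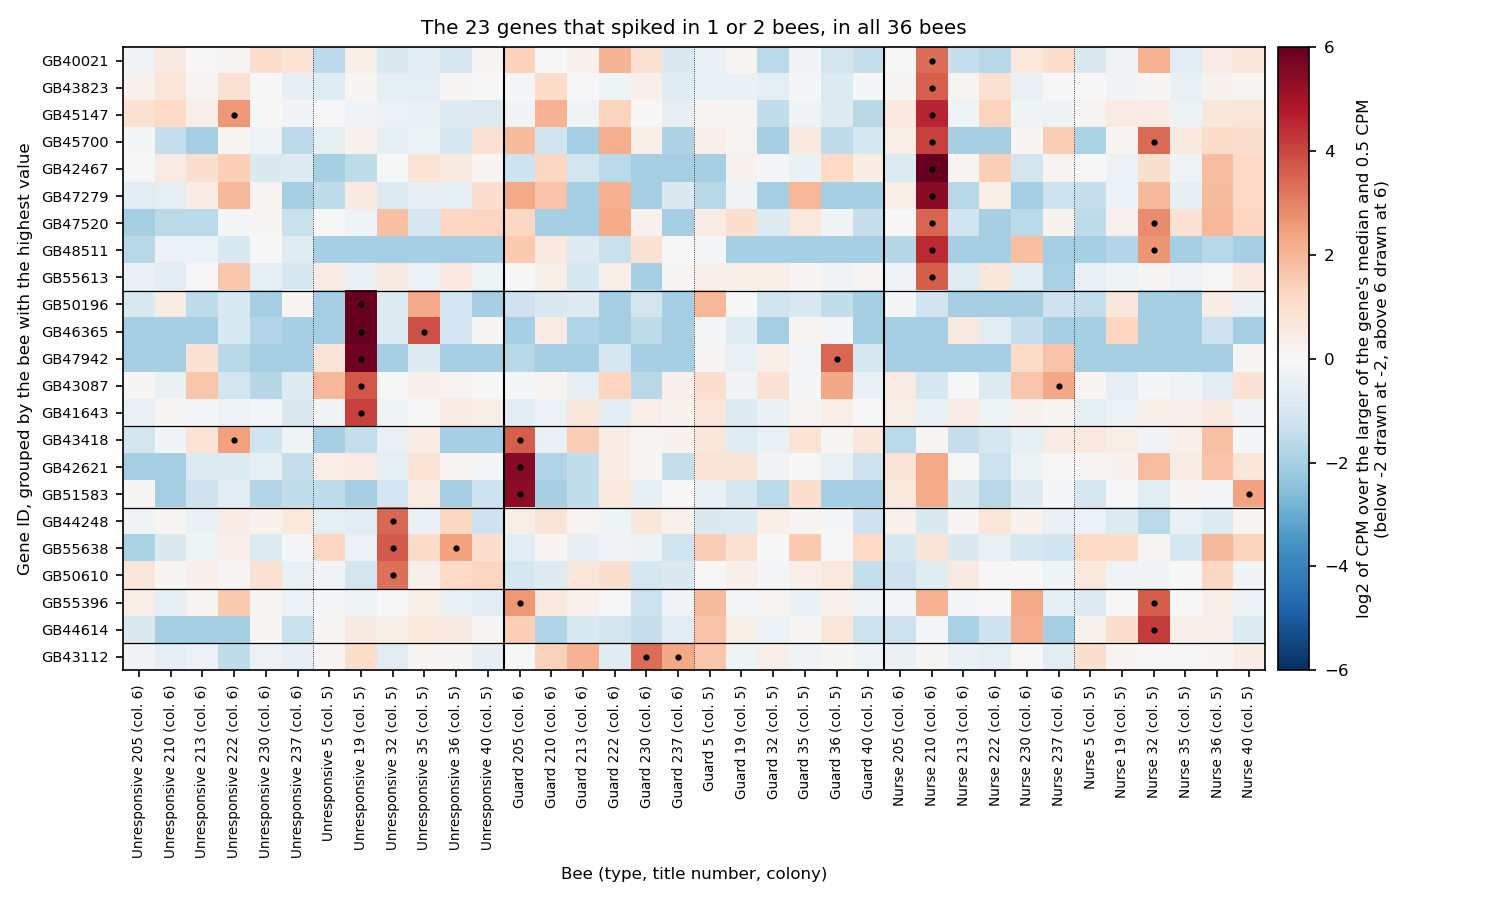
The 23 genes (rows, grouped by the bee with the highest value) in the 36 bees (columns, unresponsive bees, guards and nurses from left to right, colony 6 before colony 5 in each). Colour is the log2 of CPM over the gene's base, and black dots mark spiking bees; Nurse 210 is dark in 9 rows and Unresponsive 19 in 5, and paler red cells in other columns show the graded levels below the cutoff.

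Unresponsive 19 had the highest value of 5 genes, and among them were the 2 genes of the 23 with the highest ratio to their median. GB50196 stood at 300.4 CPM in this bee from 5463 reads, against 0.0485 to 2.45 CPM in the other 35, and exceeded the next bee 122-fold. GB46365 stood at 76.2 CPM there, at 7.30 CPM in Unresponsive 35, which also passed the cutoff, and at 0 to 1.23 CPM in the remaining 34 bees. Unresponsive 35 was also the second-highest bee of GB50196, at 2.45 CPM, just below the cutoff of 2.50 CPM. Both genes were low elsewhere, with medians of 0.224 CPM for GB50196 and 0.147 CPM for GB46365.

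The other 3 genes of Unresponsive 19 had other second bees. GB47942 stood at 28.8 CPM in Unresponsive 19, 5.53 CPM in Guard 36 and 0 to 1.66 CPM in the other 34, with 0 reads in 8 bees. GB43087 stood at 21.6 CPM in Unresponsive 19 and 8.15 CPM in Nurse 237, and the next bee, Guard 36, lay at 7.97 CPM against a cutoff of 8.10 CPM. GB41643 stood at 18.4 CPM in Unresponsive 19 and 0.602 to 1.82 CPM in the other 35. GB41643 was the only one of the 23 in which no other bee passed 2 times the base. DWV load in Unresponsive 19 was 23044 RPM, and 77.3% of its reads mapped to the genome, against 74.3% to 86.7% over all bees; their part in its spikes was not tested.

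Guard 205 had the highest value of 3 genes. GB43418 stood at 103 CPM in Guard 205, 46.6 CPM in Unresponsive 222 and 1.43 to 28.6 CPM in the other 34 bees. GB42621 stood at 57.4 CPM in Guard 205 and 0.244 to 6.20 CPM in the other 35, the highest of these being Nurse 210. GB51583 stood at 20.6 CPM in Guard 205, 2.64 CPM in Nurse 40 and 0 to 2.36 CPM in the other 34, again with Nurse 210 highest among these. Guard 205 also spiked, as the second bee, in GB55396.

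Nurse 32 had the highest value of GB55396, at 29.9 CPM, with 14.7 CPM in Guard 205 and 0.977 to 11.6 CPM in the other 34 bees. It also had the highest value of GB44614, at 13.6 CPM, against 0.147 to 3.45 CPM in the other 35. In both genes Nurse 230 and Guard 5 were raised too, Nurse 230 to 11.6 and 3.45 CPM and Guard 5 to 3.70 and 3.30 times the base. Unresponsive 32 had the highest value of GB44248, at 30.9 CPM against 0.910 to 6.60 CPM in the other 35, of GB55638, at 29.3 CPM, and of GB50610, at 10.8 CPM against 0.407 to 2.60 CPM in the other 35. Unresponsive 36 was second in GB44248, at 6.60 CPM, and second in GB55638, at 12.3 CPM, where it passed the cutoff. Nurse 32 and Unresponsive 32 carry the same title number and shared no spiking gene.

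GB43112 stood apart from the other 22 genes in level and in its bees. Its highest value was 384 CPM, in Guard 230, and its median 38.2 CPM. It stood at 192 CPM in Guard 237, barely above the cutoff of 191 CPM, then at 165 CPM in Guard 213, 121 CPM in Guard 5 and 98.2 CPM in Guard 210. The 12 guards ran from 23.2 to 384 CPM with a median of 45.3 CPM, the 12 unresponsive bees from 13.4 to 79.1 CPM with a median of 29.9 CPM and the 12 nurses from 23.7 to 74.2 CPM with a median of 38.9 CPM. The 5 highest bees were all guards, and the other 7 guards lay within the range of nurses or just below it. The same 5 guards were the 5 highest bees for GB51223 and GB47546, both set aside by the rule. For GB47318, also set aside, Guards 210, 237, 213 and 230 were highest, at 70.8 to 107.7 CPM. Guard 5 was only at rank 8 there, at 3.37 CPM. GB51223 stood at 922 CPM in Guard 210, 739 CPM in Guard 237, 575 CPM in Guard 213, 570.2 CPM in Guard 230 and 66.4 CPM in Guard 5. The order within the 5 differed: Guard 210 was highest for GB51223 and lowest of the 5 for GB43112. DWV load was 8608 RPM in Guard 230, 6673 in Guard 237, 8526 in Guard 213, 10944 in Guard 5 and 32.0 in Guard 210. Guards 230, 237 and 213 were the only colony 6 bees above 1000 RPM. Guards 19, 32, 36 and 40 of colony 5, outside the 5, had 10412 to 17990 RPM. Guard behaviour and virus load cannot be fully told apart in these bees.

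Pairs of bees that spiked in the same gene were set beside their labels. Of the 12 genes with 2 spiking bees, 6 had both bees of 1 type and 6 had both of 1 colony. Over all 630 pairs of the 36 bees, 31.4% share a type and 48.6% share a colony. None of the 12 pairs shared a title number, which 5.71% of all pairs do. The pair of Nurse 210 and Nurse 32 occurred in 3 genes, and each of the other 9 pairs in 1 gene. The mean of the bees with the same number as the top bee exceeded the median of the other bees in 13 of the 23 genes. This sets a mean against a median, with no share for unrelated bees beside it, so it is only a description. A same-numbered bee was among the 4 highest bees in 4 of the 23 genes. In GB50196 the same-numbered bees, Nurse 19 and Guard 19, stood at 0.788 and 0.489 CPM, and the higher of them was 0.262% of the spike.

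Genes that shared a spiking bee were less alike once the spiking bees were left out. Pearson's r of log2(CPM + 0.5) over the 36 bees had a median of 0.55 over the 63 pairs of genes that shared a spiking bee and -0.06 over the 190 pairs that shared none. These values are descriptions, because a shared spike sets most of r by itself and all points share the same libraries. Over the 32 to 35 bees in which neither gene spiked, the median r was 0.15 for the pairs that shared a spiking bee and 0.02 for the others. GB46365 and GB50196 were the most alike pair of all, with r of 0.91 over 36 bees and 0.30 over the 34 without a spike.

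A few pairs stayed alike outside their spikes. GB43087 and GB47942 had r of 0.74 over the 33 bees with no spike in either, and GB45700 and GB47520 had r of 0.74 over 34 bees. GB42621 and GB47520, which shared no spiking bee, had r of 0.69 over 33 bees. GB43823 and GB45147 had r of 0.68, and GB40021 and GB45700 had r of 0.67, both over 34 bees. In 11 of the 253 pairs r outside the spikes exceeded 0.5, and 8 of these pairs shared a spiking bee.

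Of the 5 bees with at least 3 spikes, 4 were also high in many genes that were raised more widely. A further 75 genes passed the same size limits but had 3 or more bees above the cutoff, leaving out the IDs set aside. Nurse 32 was above the cutoff in 41 of these 75, Guard 205 in 40, Guard 5 in 37, Nurse 210 in 34, Unresponsive 19 and Nurse 230 in 32 each and Guard 222 in 30. The median over the 36 bees was 12, and Unresponsive 32 stood at 12. Guard 5, Nurse 230 and Guard 222 were thus high in the wider genes with 0 spikes among the 23.

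The IDs that the rule set aside were not highest in the same bees throughout. GB55210 was near 0 in every bee, with a highest value of 0.114 CPM. GB55204 to GB55213, 10 IDs in a row, summed to 17200 CPM in Guard 222, 10661 CPM in Nurse 222, 3606 CPM in Nurse 210, 2749 CPM in Nurse 19 and 2622 CPM in Guard 205. Guard 222, Nurse 222 and Nurse 19 had 0 of the 23 genes, while Nurse 210 had 9 and Guard 205 had 4. Unresponsive 19 and Nurse 32, with 5 genes each, had 96.2 CPM and 103 CPM of the same sum. GB49544 was highest in Nurse 210, at 908 CPM, followed by 151 CPM in Nurse 40, 125 CPM in Guard 222 and 124 CPM in Nurse 32. It stood at 61.0 CPM in Guard 205, 12.2 CPM in Unresponsive 19 and 3.64 CPM in Unresponsive 32.

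**Figure D4:**
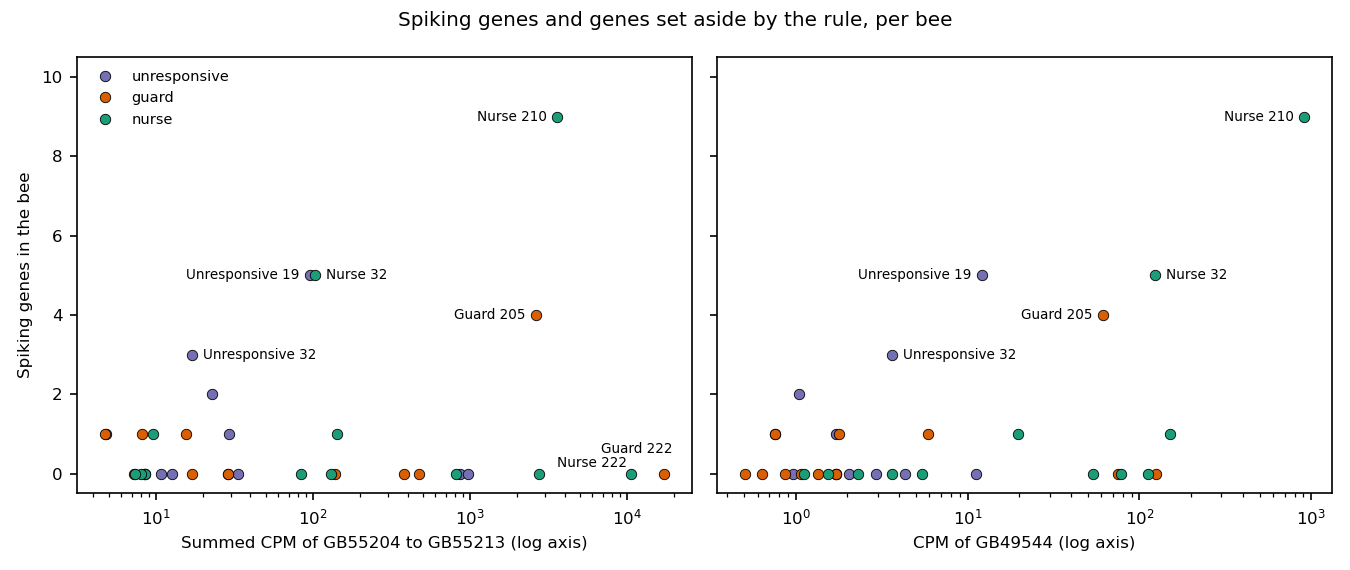
Number of the 23 genes that spiked in each bee against the summed CPM of GB55204 to GB55213 (left) and the CPM of GB49544 (right), both on log axes, 1 point per bee coloured by type. The bees with the highest sums, Guard 222 and Nurse 222, have 0 spiking genes, while Nurse 210 has 9 and the highest GB49544.

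Behavioural type and colony were not used to choose the genes, and both were tested in the fit across all genes. The extreme values that chose the genes also enter that fit, however, so its p-values are not free of the choice. Shares of the genes that passed are therefore given as a description. A filter on low counts, which asks for reads in many bees and not for a spike, kept 18 of the 23 genes among 10948 tested. GB46365, GB47942, GB48511, GB50196 and GB51583 were too low outside their spikes and were not tested. A gene with 1 or 2 extreme bees has a wide error, and the counts below were read beside those over all genes.

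Of the 18 genes tested, 0 differed between any 2 behavioural types by the edgeR quasi-likelihood test at an adjusted p of 0.05. Over all genes 0.0183% were called for unresponsive bees against guards (0.00913% higher, 0.00913% lower), 0.0913% for guards against nurses (0.0548% higher, 0.0365% lower) and 0% for unresponsive bees against nurses. At an unadjusted p under 0.05 there were 4 of the 18 for unresponsive bees against guards, 6 for guards against nurses and 11 for unresponsive bees against nurses. Those are 22.2%, 33.3% and 61.1% of the 18, against 15.7%, 15.2% and 5.40% of all genes. Without Nurse 210 the counts were 4, 2 and 6 of the 18, lower in both comparisons with nurses. As shares these are 22.2%, 11.1% and 33.3% of the 18, against 15.5%, 16.7% and 5.15% of all genes. The share for guards against nurses was then below that of all genes. With DWV load as a covariate the counts were 5, 2 and 3, and with the title number as a replicate block 2, 4 and 2. For unresponsive bees against nurses those last counts are 16.7% and 11.1% of the 18, against 3.48% and 6.17% of all genes. For unresponsive bees against guards they are 27.8% and 11.1%, against 12.96% and 17.9% of all genes. For guards against nurses they are 11.1% and 22.2%, against 5.64% and 17.7% of all genes. Many of the 18 share a top bee, so they are not separate evidence. DESeq2 gave a p for only 15 of the 18 genes. In the same order of comparisons, 9, 7 and 3 of the 18 had no adjusted p by DESeq2. It called 1, 1 and 0 at an adjusted p of 0.05, and the 1 was GB43112 both times. Over all genes DESeq2 called 0.960%, 1.05% and 0.0731%.

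GB43112 was the closest to the threshold for unresponsive bees against guards. It averaged 34.4 ± 16.2 CPM in unresponsive bees and 101 ± 106 CPM in guards (SD, n = 12 each), with a log2 difference of -1.51 ± 0.39 (SE) and an adjusted p of 0.103 by edgeR. DESeq2 gave -1.51 with an adjusted p of 0.0107, so that the call depended on the tool. Without Guard 230 the edgeR difference was -1.14 with an adjusted p of 0.205. Nurses averaged 39.4 ± 13.5 CPM (SD, n = 12). The log2 difference of guards over nurses was 1.31 ± 0.39 (SE), with an adjusted p of 0.131 by edgeR and 0.0371 by DESeq2. With DWV load as a covariate in edgeR it was 0.22 ± 0.39, with an adjusted p of 0.943.

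GB42467 had the smallest p for guards against nurses. Its log2 difference was -2.55 ± 0.76 (SE) with an adjusted p of 0.131 by edgeR, and without Nurse 210 it was -0.79 with an adjusted p of 0.347. GB45700 had the smallest p for unresponsive bees against nurses, with -2.04 ± 0.65 (SE) and an adjusted p of 0.6, and -1.37 with an adjusted p of 0.899 without Nurse 210. Both differences were thus smaller without Nurse 210, and neither passed the threshold with or without it.

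Between colonies 5 of the 18 genes differed, 3 higher and 2 lower in colony 6. That is 27.8% of the genes tested, against 34.1% of all 10948 genes called for this comparison, so that the share was no higher than the background. With no low-count filter all 23 were tested and 8 passed, which is 34.8%, against 27.9% of 13960 genes, so that which share was higher depended on the filter. With the filter, all genes split into 16.7% higher and 17.5% lower in colony 6. GB45147, GB40021 and GB43823 were higher in colony 6, and GB44614 and GB55638 were lower. The groups overlapped in all 5. With DWV load as a covariate GB45147, GB43823 and GB40021 did not pass, at adjusted p of 0.241, 0.197 and 0.564 by edgeR, and GB43112 did, at 0.0393.

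GB55638 had the firmest difference. The 18 colony 6 bees ran from 0.628 to 3.95 CPM with a median of 1.58 CPM, and the 18 colony 5 bees ran from 1.10 to 29.3 CPM with a median of 5.09 CPM. In all, 17 of 18 colony 5 bees lay above the colony 6 median, and 0 of 18 colony 6 bees lay above the colony 5 median. The log2 difference was -1.79 ± 0.30 (SE), with an adjusted p of 1.65e-05 by edgeR. Without Unresponsive 32, its top bee, it was -1.53 ± 0.25 (SE) with an adjusted p of 8.75e-06.

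GB45147 ran from 1.51 to 49.7 CPM in colony 6 with a median of 2.49 CPM, and from 0.661 to 3.55 CPM in colony 5 with a median of 1.82 CPM. The log2 difference was 1.59 ± 0.38 (SE), with an adjusted p of 0.00154 by edgeR, and 0.97 ± 0.29 without Nurse 210, with an adjusted p of 0.00809. GB43823 ran from 2.86 to 57.8 CPM in colony 6 with a median of 5.21 CPM, and from 2.68 to 5.45 CPM in colony 5 with a median of 4.33 CPM. Its log2 difference of 0.90 ± 0.27 (SE), with an adjusted p of 0.0104 by edgeR, was 0.46 ± 0.14 without Nurse 210, with an adjusted p of 0.0110. In both genes the call held without the top bee while the log2 difference was over 1.5 times smaller.

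GB40021 and GB44614 were called only with their top bees. GB40021 ran from 3.08 to 101 CPM in colony 6 with a median of 13.1 CPM, and from 3.24 to 41.6 CPM in colony 5 with a median of 6.96 CPM. Its log2 difference was 1.03 ± 0.36 (SE), with an adjusted p of 0.0255 by edgeR, and 0.67 ± 0.34 without Nurse 210, with an adjusted p of 0.130. GB44614 ran from 0.147 to 3.45 CPM in colony 6 with a median of 0.313 CPM, and from 0.305 to 13.6 CPM in colony 5 with a median of 0.955 CPM. Its log2 difference was -1.41 ± 0.44 (SE), with an adjusted p of 0.0126 by edgeR, and -0.80 ± 0.36 without Nurse 32, with an adjusted p of 0.0851.

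**Figure D5:**
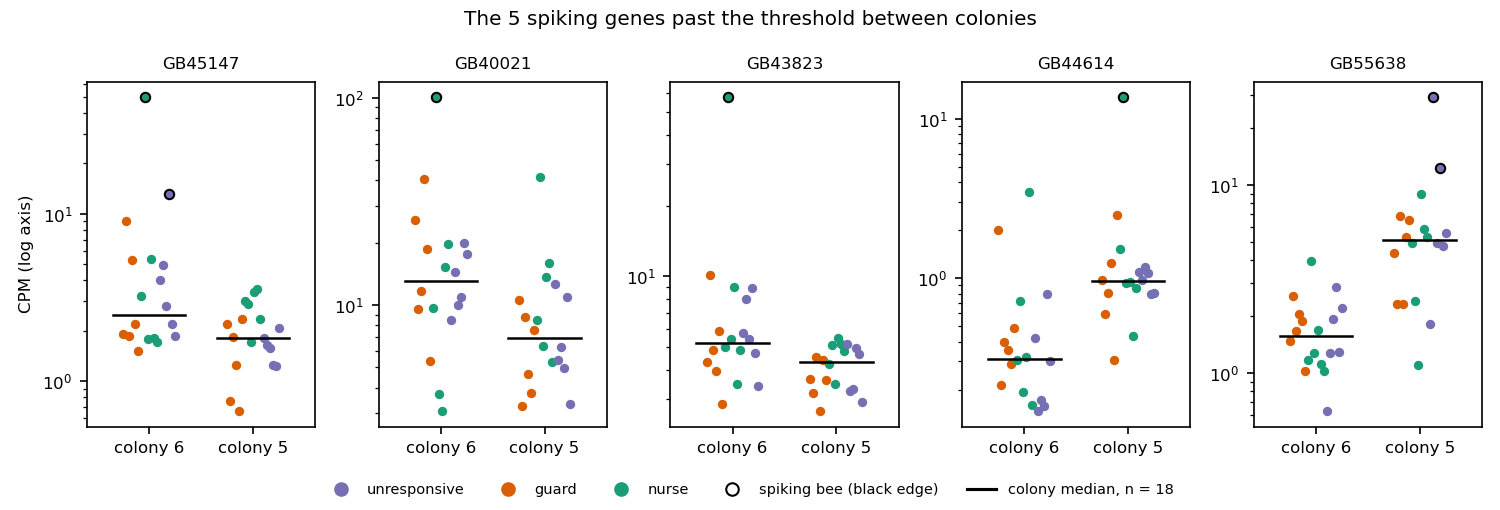
CPM of the 5 genes past the threshold between colonies, 18 colony 6 bees on the left and 18 colony 5 bees on the right of each panel, on log axes that differ between panels. Points are bees coloured by type, black edges mark spiking bees and lines are colony medians; in GB55638 the colony 6 bees end at 3.95 CPM while the colony 5 median is 5.09 CPM.

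GB44248 and GB42621 passed between colonies only with their top bee left out, and they are shown for that reason. In both, the spike lay in the colony with the lower median. The same held for the top bee of GB42467, GB43112, GB43418, GB45700, GB47520, GB55396 and GB55613, none of which passed with or without that bee. GB44248 had a median of 3.27 CPM in colony 6, with a range of 1.54 to 4.79 CPM, and a median of 1.98 CPM in colony 5, with a range of 0.910 to 30.9 CPM. Of the 18 colony 6 bees, 17 lay above the colony 5 median. The log2 difference was 0.00 ± 0.31 (SE), with an adjusted p of 0.994 by edgeR, and 0.52 ± 0.19 without Unresponsive 32, with an adjusted p of 0.0350. GB42621 had a median of 0.815 CPM in colony 6, with a range of 0.244 to 57.4 CPM, and a median of 1.62 CPM in colony 5, with a range of 0.559 to 4.66 CPM. Its log2 difference was 0.41 ± 0.64 (SE), with an adjusted p of 0.652 by edgeR, and -0.78 ± 0.28 without Guard 205, with an adjusted p of 0.0313.

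With each gene's own top bee left out, 5 of the 18 genes again passed between colonies, but 3 of them were shared with the 5 passed on all bees. Over all genes 3561 to 3923 passed with 1 bee left out, against 3737 (34.1%) on all bees. The 27.8% of the 18 was thus no higher than the background. The sign of the colony difference changed in 5 of the 18. Leaving out a gene's highest bee lowers its own colony's level by construction, so these values show how far 1 bee carried the estimate and are not estimates for the colonies.

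The 2 genes closest outside each limit were highest in Nurse 210, Nurse 32 or Guard 205. The top bees of the other genes outside were not listed. Just inside the limit of 10 CPM were GB55613, at 10.3 CPM, and GB50610, at 10.8 CPM, and just outside were GB52864, at 9.33 CPM, and GB41912, at 8.57 CPM, both highest in Nurse 210. Just inside the limit of 10 times the median were GB50610, at 10.02 times, and GB43112, at 10.07 times, and just outside were GB42769, at 9.56 times, and GB45211, at 9.50 times, both highest in Nurse 32. In all, 34 genes failed only the limit on the highest CPM and 33 only the limit on the ratio. Among the 98 genes that passed both limits and were not set aside, 26 had 3 to 5 bees above the cutoff and 49 had 6 or more. Just outside the limit on the number of bees lay GB43805, highest in Nurse 210, with 19.4 CPM in the third bee against a cutoff of 19.2 CPM, and GB52428, highest in Guard 205, with 5.19 CPM against 4.97 CPM.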

How the data were processed

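The authors deposited whole-number read counts per gene ID, one file per bee, not normalized, with 5 summary rows that stayed out of all totals. The largest, reads in no annotated gene, took 27.2% to 30.0% of counted reads per library. Tools listed by the submitters' processing notes are HTSeq, which counts reads per gene, SAMtools 0.1.19, Bowtie2 2.1.0, TopHat2 2.0.10 and CASAVA 1.8.2. The strand option was not found in the labels or files, so overlapping or near-identical genes may share reads. Groups were taken from the sample titles. The genes and the list set aside were chosen with earlier results of these data known.

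CPM was computed on total counts over genes (pandas 2.3.3, Python 3.11.15), since the rule fixes it. Types and colonies were compared with edgeR 4.0.16 in R 4.3.3 (filterByExpr by type, TMM, robust quasi-likelihood fit, type and colony as terms, all 36 bees). The Benjamini-Hochberg adjustment ran over all genes tested. DESeq2 1.42.0 was an alternative, beside another scaling, no filter, no robust estimation, DWV load, other limits and left-out libraries. Both the rule and the fit were run on simulated counts with planted changes, as a check of the code. Those for the rule varied only by counting error, and those for the fit held no extreme bees. The check therefore does not show how either performs on genes like these. Genes were named by rule: for each bee with at least 3 genes, the 2 with the highest CPM there; the 2 most abundant genes with 2 spiking bees; the 2 closest to each limit on either side; and per comparison at most 2 past the threshold per direction by greatest log2 change, or else the one with the smallest p. The rest of the 23, GB43823 between colonies, GB44248 and GB42621 included, were named after their values were seen. The title number is not said in the labels to mark a shared dish or day; its check stands with the alternatives.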

Additional observations from a re-analysis of the deposited data

How the results depend on the processing

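With TMM-scaled CPM the rule found 20 genes, all among the 23, and without the 3 libraries numbered 213 it found 22. A highest value of at least 20 CPM gave 17 genes, with 9 rather than 14 in colony 5. A highest value of at least 5 CPM gave 35 genes, 10 in guards, 21 in nurses and 23 in colony 6. A ratio of at least 20 gave 9 genes, of which 4 spiked in unresponsive bees, 3 in guards, 5 in nurses, 6 in colony 6, 5 in colony 5 and 4 in Nurse 210. A spike cutoff of 3 times the base gave 7 genes, 5 in unresponsive bees, 0 in guards, 3 in nurses, 3 in colony 6, 5 in colony 5 and 3 in Nurse 210. Nurse 210 held the most genes under these 6 settings, and the causes of the shifts in this and the next paragraph were not tested. With each of the 36 bees left out in turn, chosen after seeing the data, the rule found 16 (without Nurse 210) to 25 genes, 4 (without Unresponsive 19; 6 without Unresponsive 32) to 11 in unresponsive bees, 1 (without Guard 205) to 7 in guards, 6 (without Nurse 210) to 15 in nurses, 7 (without Nurse 210; 9 without Guard 205) to 16 in colony 6, 8 (without Unresponsive 19 or Nurse 32) to 16 in colony 5, and 5 (without Nurse 210, in Unresponsive 19) to 11 in the bee with the most.

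Genes of the 23 called between types numbered 0 with each bee left out and in every other alternative run but DESeq2, which called 1 for unresponsive bees against guards and 1 for guards against nurses. DESeq2 gave no adjusted p for 9 of the 18 genes in the first of these and 7 in the second. Between colonies 5 genes were called, and 4 to 6 with a bee left out, where 3561 to 3923 passed over all genes. There were 8 of 23 with no low-count filter (34.8%, against 27.9% of all genes). With DWV load as a covariate there were 3 (16.7%, against 17.6% of all genes). Over all genes the counts varied more: guards against nurses gave 10, with 0 (DWV load) to 115 (DESeq2) over the other settings, unresponsive bees against guards 2, with 0 (a bee left out) to 105 (DESeq2), unresponsive bees against nurses 0, with 0 to 8 (DESeq2), and colonies 3737, with 1929 under DWV load. With the title number as a replicate block 0 of the 18 genes passed for any pair of types, and 38 genes over all passed for guards against nurses. Same-numbered bees deviated together by r over 0.1 in 21 of 36 pairs, and in 2 of 12 numbers all 3 bees correlated best with their own number. The mean r within a number ran from -0.06 for number 5 to 0.28 for number 205. Whether these bees share more than a number cannot be told from these values. The fit without the block treats them as separate bees.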
